A study of Mus musculus with 15 samples.

Results

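Ventricles of mice infused with angiotensin II (AngII) were compared with ventricles of mice given vehicle, across all expressed genes, with attention to functional classes other than the matrix and fetal genes. The comparison used the 10 libraries of these groups out of 15 in the series, and 13121 of 36653 genes, those with a mean of at least 0.5 FPKM (reads scaled to gene length and library depth) over the 15 libraries. All mice were wild-type C57BL/6 animals aged 10 weeks. Vehicle animals were given saline. AngII animals had a pump under the skin that released the peptide at 1000 ng/kg/min. The third group, AngII plus OA, had the same pump and daily oleic acid (OA) at 160 mg/kg, given to each mouse in 0.3 mL, and entered the fit to share the estimate of the spread. Each group had 5 libraries, which the labels call biological replicates, and the length of the infusion was not given in the sources used here.

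AngII is the effector peptide of the renin-angiotensin system. It constricts vessels through the type 1 angiotensin receptor and, with the rise in blood pressure, loads the heart. Loaded ventricles are known to enlarge their muscle cells, to return to parts of the fetal muscle program, to activate fibroblasts that deposit matrix, and to recruit macrophages. In whole-ventricle RNA, fewer cells of a type and less RNA per cell cannot be told apart.

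Depth ran from 22.0 to 25.4 M gene-assigned reads per library. The share of FPKM in genes of the mitochondrial genome was 47.1% ± 2.52 in vehicle and 41.1% ± 5.205 in AngII hearts (SD, n = 5 each; exact permutation p = 0.0635, 2-sided). AngII replicate 2 had the highest share among the AngII hearts, 48.3%, inside the vehicle range of 44.65% to 50.02%. Without that library the difference was -7.74 percentage points (exact permutation p = 0.00794, the smallest possible with the libraries left). With any of the other 9 libraries left out the p was 0.0635 to 0.119. Because FPKM is relative to a total that includes these genes, a lower share lifts the FPKM of all others, and the median log2 difference of all genes tested was 0.07, with 8625 of 13121 higher in AngII. It was 0.01 after FPKM had been rescaled to the total without mitochondrial genes. AngII replicate 2 stood apart from the other libraries, at 66.1 on a first principal component that held 29% of the variance, where the others lay between -17.2 and 8.98. Its 18 atrial markers summed to 3682 FPKM, against 226 to 989 in vehicle and at most 944 in the other AngII hearts. Its 14 adipocyte markers summed to 410.4 FPKM, against 23.2 to 41.6 in vehicle and at most 199 in the other AngII hearts. Its 23 cardiomyocyte markers summed to 27240 FPKM, below the 40010 to 49460 of the vehicle hearts, and the highest AngII heart reached 46780. Results are therefore also given without that library. No cardiomyocyte or atrial marker on the lists was at 0 in all 10 libraries.

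Of the 13121 genes, 197 were called (limma, Benjamini-Hochberg adjusted p under 0.05), which is 1.5% of those tested. The 166 called higher were 1.27% and the 31 called lower 0.236%. The log2 difference of the called rises had a median of 0.80 and reached 3.13, and 54 of them were at least 1. The falls had a median of -0.68 and reached -1.14, and 3 of them were at least 1 in size. Differences are of log2(FPKM + 1), which makes the change of a gene near or below 1 FPKM look smaller. The groups were fully separate for 148 of the 166 rises and 23 of the 31 falls. Over all genes, 3.13% lay apart with AngII higher and 0.663% with AngII lower. The falls rested on fewer reads, with a median of 176 recovered reads per library, against 861 for the rises.

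The number of calls depended on single libraries. It was 86, 245, 425, 70 and 49 when AngII replicate 1, 2, 3, 4 or 5 was left out, in that order. With vehicle replicate 2, 3, 4 or 5 left out it was 79, 128, 70 and 50. Called genes were higher in 84.3% of cases with FPKM as deposited, in 67.5% after rescaling without mitochondrial genes (77 higher, 37 lower) and in 63.3% after quantile normalization (69 higher, 40 lower). None of the 197 genes was called in the opposite direction under any alternative. In all 10 fits that left out 1 library, 35 of the 166 rises and 5 of the 31 falls were called again. All 40 were also called under each of the 3 other scalings. The 5 falls were Clcn1, Ano10, Sned1, BB218582 and Gm14508. The rises included the secreted and signalling genes Fstl1, Pthlh, C1qtnf6, Ccl5, Pamr1, Svep1, Mmp2, Adamts2, Adamtsl2, Ltbp2, Sparc, Srpx, Pi16, Cilp and Postn, the matrix genes Bgn, Col1a2, Col3a1, Col5a2, Fbln2, Loxl1, Mfap5 and Sulf1, the enzymes Dio2, Gpd1, Msrb1 and Sod3, the macrophage-related genes C1qb, Fcgr3, Mpeg1 and Tlr13, and Ankrd1, Trim59 and 1700047I17Rik2. Every other rise or fall named below lost its call in at least 1 of those 10 fits.

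**Figure D1:**
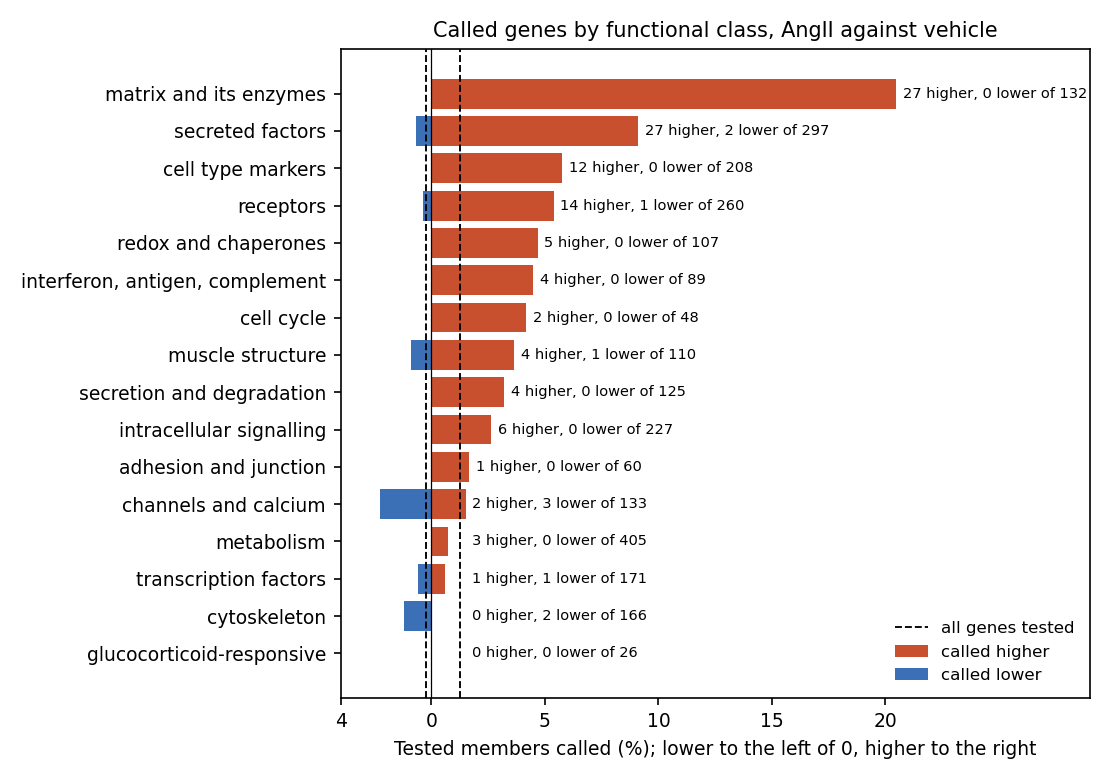
Share of tested members called higher (red, right of 0) or called lower (blue, left of 0) in AngII hearts for 16 functional classes, in percent, with the shares over all genes tested (1.27% higher and 0.236% lower) as dashed lines. The matrix class had 27 of 132 members called higher, while 1 higher and 1 lower were called among 171 transcription factors.

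The condition had 5 marker genes. Acta1, the skeletal alpha-actin that the fetal heart expresses, was at 126, 116, 129, 89.9 and 74.4 FPKM in the vehicle hearts and at 1793, 259.8, 976, 1405 and 592 in the AngII hearts. Ankrd1, a stretch-responsive protein of the sarcomere and nucleus, was at 461, 286, 401, 399 and 222 in vehicle and 1466, 1027, 956, 1097 and 941 in AngII. In both genes every AngII heart was above every vehicle heart, and AngII replicate 1 was the highest. Postn, a matricellular protein of activated fibroblasts, rose by 2.16 on the log2 scale (SE 0.39, adjusted p = 0.0163). Cilp, a matrix protein, rose by 2.78 (SE 0.43, adjusted p = 0.0114), and Timp1, an inhibitor of metalloproteinases, rose by 2.43 (SE 0.497, adjusted p = 0.0287). Acta1 rose by 2.96 (SE 0.64, adjusted p = 0.0335) and Ankrd1 by 1.66 (SE 0.25, adjusted p = 0.0114).

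Promoter sequences are shown for both muscle markers that rose. Load-responsive muscle genes are known to carry CArG boxes, the binding motif of serum response factor, and TEAD motifs. The receptor gene Mas1, which fell, is shown as well, and no window of a called gene held more TEAD matches. All sequences are the 250 bases before the start of transcription, from RefSeq on GRCm38.p6. They are read 5′ to 3′ on the gene's own strand, with CArG and TEAD matches in capitals. Acta1 lies on the minus strand of chromosome 8 (chr8:123894776-123895025) and has 1 CArG box, 73 to 64 bases before the start, and 1 TEAD motif. Ankrd1, on the minus strand of chromosome 19 (chr19:36119845-36120094), has 2 TEAD motifs. Mas1, on the minus strand of chromosome 17 (chr17:12868144-12868393), has 3 TEAD motifs.
Acta1: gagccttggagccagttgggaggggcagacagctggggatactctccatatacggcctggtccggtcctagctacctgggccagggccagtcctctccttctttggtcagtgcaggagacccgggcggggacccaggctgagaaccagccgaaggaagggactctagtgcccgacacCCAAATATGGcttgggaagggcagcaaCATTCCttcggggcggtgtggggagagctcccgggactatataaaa
Ankrd1: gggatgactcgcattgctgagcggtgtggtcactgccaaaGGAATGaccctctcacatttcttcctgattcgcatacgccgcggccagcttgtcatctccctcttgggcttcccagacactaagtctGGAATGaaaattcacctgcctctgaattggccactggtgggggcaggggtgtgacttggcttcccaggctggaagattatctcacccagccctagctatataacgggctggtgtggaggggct
Mas1: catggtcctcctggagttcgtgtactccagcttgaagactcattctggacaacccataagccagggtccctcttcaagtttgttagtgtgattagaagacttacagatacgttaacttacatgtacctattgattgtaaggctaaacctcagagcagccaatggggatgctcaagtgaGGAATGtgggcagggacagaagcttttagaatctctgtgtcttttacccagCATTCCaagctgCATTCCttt
The TEAD motif was searched as GGAATG on both strands, and the CArG box by its name-giving consensus, on both strands. RefSeq windows matched 118 of the 166 called rises (136 windows) and 18 of the 31 falls (21 windows). The TEAD motif was in 21 windows of the rises (15.44%), 2 of the falls (9.524%) and 10.89% of the windows of all genes tested. The CArG box was in 2 windows of the rises (1.471%), 0 of the falls and 1.262% of all genes tested. Motifs of the factors AP-1 and MEF2 were searched too. The AP-1 motif was in 8.088% of the windows of the rises, 9.524% of the falls and 4.449% of all genes tested. For the MEF2 motif the shares were 0.7353%, 4.762% and 1.877%, in that order. These shares were not tested, and a match is a run of letters, not a measured site.

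The falls included 3 members of the 133 tested in the channel class, where 0.236% of all genes were called lower. Clcn1, the voltage-gated chloride channel that stabilises the resting potential of skeletal muscle, was at 1.16, 4.14, 2.103, 2.41 and 3.396 FPKM in the vehicle hearts and 0.502, 0.292, 0.873, 0.881 and 0.478 in the AngII hearts. All 5 AngII hearts were below all 5 vehicle hearts, and the mean was 2.64 ± 1.16 in vehicle and 0.605 ± 0.261 in AngII (SD; log2 difference -1.14, SE 0.20, adjusted p = 0.0148). Ano10, an anoctamin of the family of chloride channels and lipid scramblases, was at 9.16, 12.4, 12.4, 12.5 and 9.96 in vehicle and 4.83, 3.595, 5.81, 4.78 and 3.998 in AngII, again without overlap (log2 difference -1.14, SE 0.18, adjusted p = 0.0127). Kcnv2, a silent subunit that modifies voltage-gated potassium channels, was at 3.46, 4.16, 4.68, 4.07 and 3.64 in vehicle and 1.55, 0.437, 1.94, 1.85 and 2.06 in AngII (log2 difference -1.01, SE 0.21, adjusted p = 0.0304). AngII replicate 2 was the lowest, and the difference was -0.81 without it (adjusted p = 0.0287). Cacna1s, the pore subunit of the skeletal muscle calcium channel, fell by 0.49 on the log2 scale from a vehicle mean of 0.816 ± 0.234. It is on none of the lists of that class, calcium handling included. Of its exon bases, 19.98% are shared with an opposite-strand gene model, Gm37759, and without AngII replicate 2 it was not called (adjusted p = 0.0533).

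Clcn1 and Cacna1s are known from skeletal muscle, so 10 markers of fast skeletal fibres were examined, chosen after the falls had been seen. Their summed level was 3.80 to 5.77 FPKM in vehicle and 4.21 to 8.23 in AngII hearts, and the myosin genes Myh1, Myh2 and Myh4 were at or near 0 in all 10 libraries. The skeletal myosin light chain gene Myl1, described below, is not among the 10. It was at 12.2 to 32.3 FPKM in vehicle and 37.1 to 80.4 in AngII hearts. Whether skeletal muscle had a part in these falls was not tested. Among 28 potassium channel genes 22 were lower and 1 was called lower, where 0.236% of all genes were. Their median log2 difference was -0.15, against 0.07 for all genes. It was -0.02 without AngII replicate 2 and -0.11 when rescaled as well, where the median of all genes was 0.01. Among 46 calcium-handling genes 24 were higher and 22 lower. In limma none was called (10 at an unadjusted p under 0.05, and 0 by voom), and their median of 0.04 became -0.05 after rescaling. Besides Fkbp5, described below, the smallest p there was that of Cacng6, a channel gamma subunit (-0.72, adjusted p = 0.0792), which was called lower without AngII replicate 2. Channels that rose were Panx1, a pannexin that releases ATP, from 0.5202 ± 0.108 to 1.49 ± 0.464 FPKM (SD, n = 5; log2 difference 0.69, adjusted p = 0.0163), and Fxyd5, a regulator of the sodium pump, by 0.93 (adjusted p = 0.0304).

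**Figure D2:**
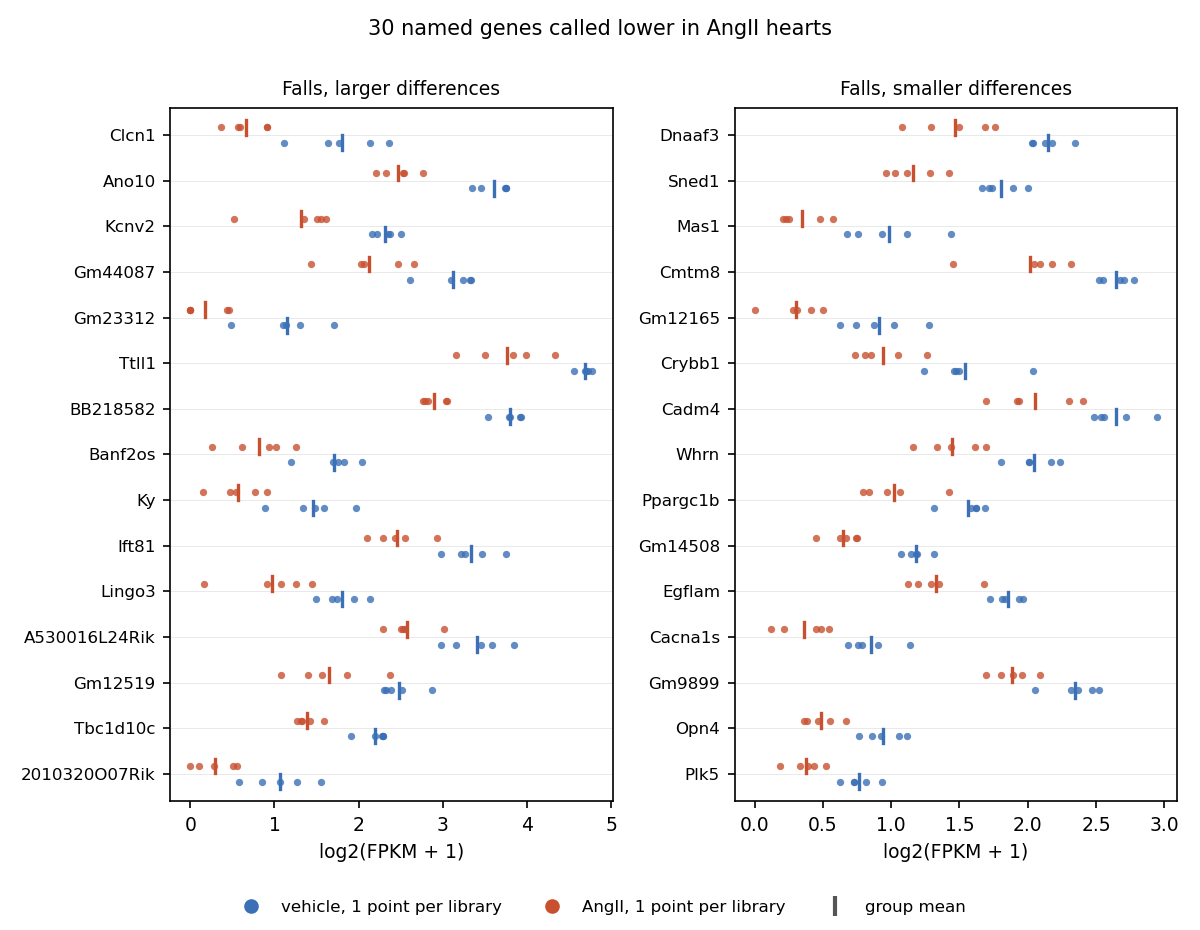
log2(FPKM + 1) of 30 of the 31 genes called lower, with 1 point per vehicle (blue) and AngII (red) library and bars at the group means, ordered by the size of the difference. For 22 of the 30 genes the 5 AngII points all lie below the 5 vehicle points.

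The lists of 48 microtubule and 44 cilium genes held 1 fall each, Ttll1 and Ift81, where 0.236% of all genes were called lower. Ttll1, a subunit of the enzyme that adds glutamate chains to tubulin, was at 25.1, 26.4, 25.4, 22.5 and 24.8 FPKM in vehicle and 14.9, 7.94, 19.1, 13.2 and 10.3 in AngII hearts (log2 difference -0.93, SE 0.18, adjusted p = 0.0236). Ift81, part of the complex that carries tubulin into cilia, was at 8.27, 8.58, 10.03, 12.4 and 6.898 in vehicle and 4.85, 3.27, 6.602, 4.41 and 3.89 in AngII (log2 difference -0.87, SE 0.18, adjusted p = 0.0264). For both genes the groups did not overlap, and the lowest value was that of AngII replicate 2. Dnaaf3, a factor for the assembly of ciliary dynein, fell by 0.68 on the log2 scale (adjusted p = 0.0163). Of its exon bases 16.5% are shared with the opposite-strand model Gm15873, and 4.17% of those of Tnni3, the cardiac troponin I gene, with Dnaaf3 on the same strand. Whrn, a scaffold protein of sensory hair cells, fell by 0.597 (adjusted p = 0.0313). The families of Ttll1 and Ift81 held mostly higher values. Of 14 intraflagellar transport genes 12 were higher and Ift81 alone was called, and of 7 tubulin ligase-like genes 5 were higher and Ttll1 alone was called. Among 44 genes of the cilium list 26 were higher and 18 lower, with a median of 0.03 that was -0.02 after rescaling. Without AngII replicate 2, Ttll1, Ift81, Dnaaf3 and Whrn were each called again.

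Other falls encoded muscle, membrane and adhesion proteins. Ky, a muscle peptidase of the Z-disc, was at 0.854, 2.92, 1.52, 2.01 and 1.79 FPKM in vehicle and 0.701, 0.111, 0.884, 0.389 and 0.453 in AngII hearts, and vehicle replicate 1 overlapped the highest AngII heart (log2 difference -0.88, SE 0.17, adjusted p = 0.0236). Sned1, a secreted matrix protein, fell from 2.505 ± 0.347 to 1.25 ± 0.303 FPKM (SD, n = 5), with a log2 difference of -0.64 (adjusted p = 0.0148), and 19.5% of its exon bases are shared with Mterf4. Egflam, a matrix ligand of dystroglycan, fell by 0.53 on the log2 scale (adjusted p = 0.0335). Cmtm8, a membrane protein of the chemokine-like factor family, fell by 0.63 and Tbc1d10c, a GTPase-activating protein, by 0.81. The cell adhesion molecules Cadm4 and Lingo3 fell by 0.598 and 0.83, and A530016L24Rik fell by 0.83. The polo-like kinase Plk5 fell by 0.39, the lens crystallin Crybb1 by 0.601 and the photopigment Opn4 by 0.46, all from vehicle means of at most 1.96 FPKM. Opn4 was not called after rescaling. Tbc1d10c, Cadm4, A530016L24Rik, Crybb1 and Opn4 were not called without AngII replicate 2.

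Of the 31 falls 22 were protein-coding. Among 773 long noncoding genes 7 were called lower and 0 higher, where 0.236% and 1.27% of all genes were, while their median log2 difference was 0.01, or -0.04 after rescaling. Without AngII replicate 2 it was 5 lower and 3 higher. BB218582 was at 10.6, 14.1, 14.2, 12.8 and 12.8 FPKM in vehicle and 6.06, 5.92, 7.28, 5.798 and 7.19 in AngII hearts, with no overlap (log2 difference -0.901, SE 0.11, adjusted p = 0.00933). Gm14508 fell by 0.53 (SE 0.08, adjusted p = 0.0114). Gm44087 fell by 0.99, Banf2os by 0.89, Gm12519 by 0.82, 2010320O07Rik by 0.77 and Gm9899 by 0.46. Banf2os and Gm14508 are annotated as antisense genes, and neither shares exon bases with another gene model. The pseudogene Gm12165 fell by 0.61. The small nuclear RNA Gm23312 fell by 0.97, on a mean of 1.9 reads per library, and poly(A) selection is not made for such RNA. Gm12519 and Gm23312 were not called after rescaling. Gm12519, 2010320O07Rik, Gm9899, Gm12165 and Gm23312 were not called without AngII replicate 2.

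Of 171 transcription factors tested, 1 was called higher and 1 lower, where 1.27% and 0.236% of all genes were, and the median of 0.08 was 0.00 after rescaling. Spi1, the myeloid factor PU.1, was at 1.95, 2.402, 2.76, 2.01 and 2.16 FPKM in vehicle and 3.96, 4.16, 2.87, 4.56 and 4.46 in AngII hearts. Every AngII value exceeded every vehicle value, with AngII replicate 3 just above vehicle replicate 3 (log2 difference 0.61, SE 0.11, adjusted p = 0.0165). Ppargc1b, a coactivator of mitochondrial gene expression, was at 1.48, 2.07, 2.22, 2.08 and 1.999 in vehicle and 0.787, 0.733, 1.68, 1.096 and 0.961 in AngII (log2 difference -0.55, SE 0.12, adjusted p = 0.0335). AngII replicate 3 overlapped vehicle replicate 1. Ppargc1a, its better known relative, chosen after its values were seen, had means of 22.8 and 11.8 and was not called (adjusted p = 0.541).

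In limma none of 25 cardiac factors passed, with 14 higher and 11 lower and a median of 0.03 that was -0.04 after rescaling. Their 2 smallest unadjusted p belonged to Hopx, a homeodomain cofactor of the heart, with a log2 difference of -0.60 (adjusted p = 0.0647, and 0.0348 after rescaling, which makes it a call), and Foxo3, a stress-responsive forkhead factor, with 0.56 (adjusted p = 0.156). None of 29 fibroblast and mesenchymal factors passed. Without AngII replicate 2 the homeobox factor Meox1, named after its values were seen, was called higher, with a log2 difference of 1.32 (adjusted p = 0.0288), where with all libraries it was 0.72 (adjusted p = 0.496). Scx, the tendon factor scleraxis, had a log2 difference of 0.77 (adjusted p = 0.107) and Twist1 of 0.57 (adjusted p = 0.117). None of 17 MRTF, YAP and TEAD factors and partners passed, and the cofactors Vgll3 (0.53, adjusted p = 0.0908) and Wwtr1 (0.35, adjusted p = 0.108) had the smallest p on that list. Of 25 immediate early genes, the quick responders to stimulation, 19 were lower and the median was -0.28, or -0.37 without AngII replicate 2 and -0.48 when rescaled as well, yet none passed. Fos was at 5.72, 16.2, 9.99, 22.3 and 25.6 FPKM in vehicle and 7.66, 8.69, 1.47, 7.802 and 2.08 in AngII hearts, with overlap (log2 difference -1.43, adjusted p = 0.207). Dusp1, a phosphatase of the same response, had a log2 difference of -0.60 (adjusted p = 0.1502). At an unadjusted p under 0.05, limma gave 4 cardiac, 5 fibroblast, 4 MRTF, YAP and TEAD, and 4 immediate early genes. Limma's voom on recovered reads called 0 on each of these lists.

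Receptors had 14 of 260 members called higher and 1 lower, where 1.27% and 0.236% of all genes were. Their median log2 difference was 0.21, against 0.07 for all genes. After rescaling 5 higher and 1 lower were called, and without AngII replicate 2 it was 23 higher and 0 lower. The fall was Mas1, a G protein-coupled receptor known for its response to a breakdown fragment of AngII. It was at 0.688, 1.71, 0.91, 0.599 and 1.16 FPKM in vehicle and 0.188, 0.171, 0.392, 0.156 and 0.488 in AngII hearts. The groups did not overlap (log2 difference -0.64, SE 0.14, adjusted p = 0.0348), but the gene rested on a mean of 43.3 reads per library, and without AngII replicate 2 the adjusted p was 0.05196. The type 1 receptor gene Agtr1a, chosen after its values were seen, had means of 7.91 in vehicle and 5.69 in AngII (log2 difference -0.45, adjusted p = 0.209) and was not called. Among 49 receptors for neurohormones Mas1 alone was called, and 35 were higher. Without AngII replicate 2, 4 of them were called higher and 0 lower.

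Receptors for cytokines and growth signals were among the rises, and the list counts stand beside 1.27% of all genes called higher. Ifngr1, the ligand-binding chain of the interferon-gamma receptor, rose from 29.97 ± 5.16 to 52.3 ± 10.6 FPKM (SD, n = 5; adjusted p = 0.0236), and vehicle replicate 1 was the highest vehicle heart at 38.96. Axl, a receptor tyrosine kinase that clears dying cells, was at 25.4, 20.9, 28.2, 22.8 and 27.97 in vehicle and 36.8, 35.8, 31.8, 40.5 and 47.8 in AngII (log2 difference 0.597, SE 0.13, adjusted p = 0.0365). It was the 1 call among 34 receptor tyrosine kinases, 25 of which were higher. In the TGF-beta receptor list, Pmepa1, a negative regulator of SMAD signalling, rose by 0.72 (adjusted p = 0.0163), and Itgb5, an integrin chain that activates latent TGF-beta, by 0.57 (adjusted p = 0.0335). In the Wnt and Notch list 2 of 36 were called. Frzb, a secreted Wnt antagonist, rose from 2.88 ± 0.579 to 11.7 ± 6.14 FPKM (SD, n = 5; adjusted p = 0.0287) and the Wnt receptor Fzd1 rose by 0.64 (adjusted p = 0.0396). Axl, Itgb5 and Fzd1 were not called after rescaling. Fzd1 was not called without AngII replicate 2.

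Matrix receptors and innate receptors held most of the other receptor calls, and the list counts stand beside 1.27% of all genes called higher. Of 40 integrins and matrix receptors 5 rose, and besides Itgb5 these were the integrin beta-like protein Itgbl1 by 1.54, the myeloid integrin Itgam by 0.69, and the heparan sulfate proteoglycans Sdc1 by 0.56 and Gpc6 by 0.48. Of Itgam's exon bases 68.7% are shared with a same-strand gene model. Of 41 innate and scavenger receptors 6 rose and 37 were higher. The immunoglobulin receptors Fcgr2b, Fcgr3 and Fcgr4 rose by 0.83, 0.89 and 1.55. The endosomal RNA sensor Tlr13 rose from 0.458 ± 0.223 to 1.62 ± 0.448 FPKM (SD, n = 5; adjusted p = 0.0127) and the haemoglobin scavenger Cd163 by 0.904. Gpr65, a proton sensor, Cysltr1, the leukotriene receptor, and Lrp1, an endocytic receptor, were named after their values were seen and rose by 0.81, 0.62 and 0.73. Itgb5, Itgbl1, Itgam, Sdc1, Gpc6, Fcgr2b, Fcgr4, Cd163, Gpr65 and Lrp1 were not called after rescaling. Itgbl1, Gpc6, Cd163 and Gpr65 were not called without AngII replicate 2.

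Macrophage markers were mostly higher too, and Itgam and Cd163 among them are also counted with the receptors above. Of 22 tested, 19 were higher and 5 were called (1.27% of all genes were called higher), C1qa, C1qb, C1qc, Itgam and Cd163. Their summed FPKM was 367 to 528 in vehicle and 559 to 829 in AngII hearts, without overlap, and no listed marker was at 0. C1qb, a chain of the first complement component, was at 47.1, 54.4, 61.1, 54.9 and 58.7 in vehicle and 118, 103, 70.8, 109 and 119 in AngII (log2 difference 0.88, SE 0.15, adjusted p = 0.0148). The perforin-like Mpeg1, named after its values were seen, rose by 1.13 (adjusted p = 0.0127). Lymphocyte markers had 9 of 11 higher and none called, and their sum of 171 FPKM in AngII replicate 2 compared with at most 46.5 in the other AngII hearts. The listed lymphocyte genes with the smallest p were Igkc (1.97, adjusted p = 0.118) and Trbc2 (0.78, adjusted p = 0.151). Outside that list 1 immunoglobulin constant-region gene was called higher, a call that did not hold under all 3 other scalings. The part of macrophage number in the receptor and Spi1 results was not tested. C1qc, Itgam and Cd163 were not called after rescaling. Cd163 was not called without AngII replicate 2.

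**Figure D3:**
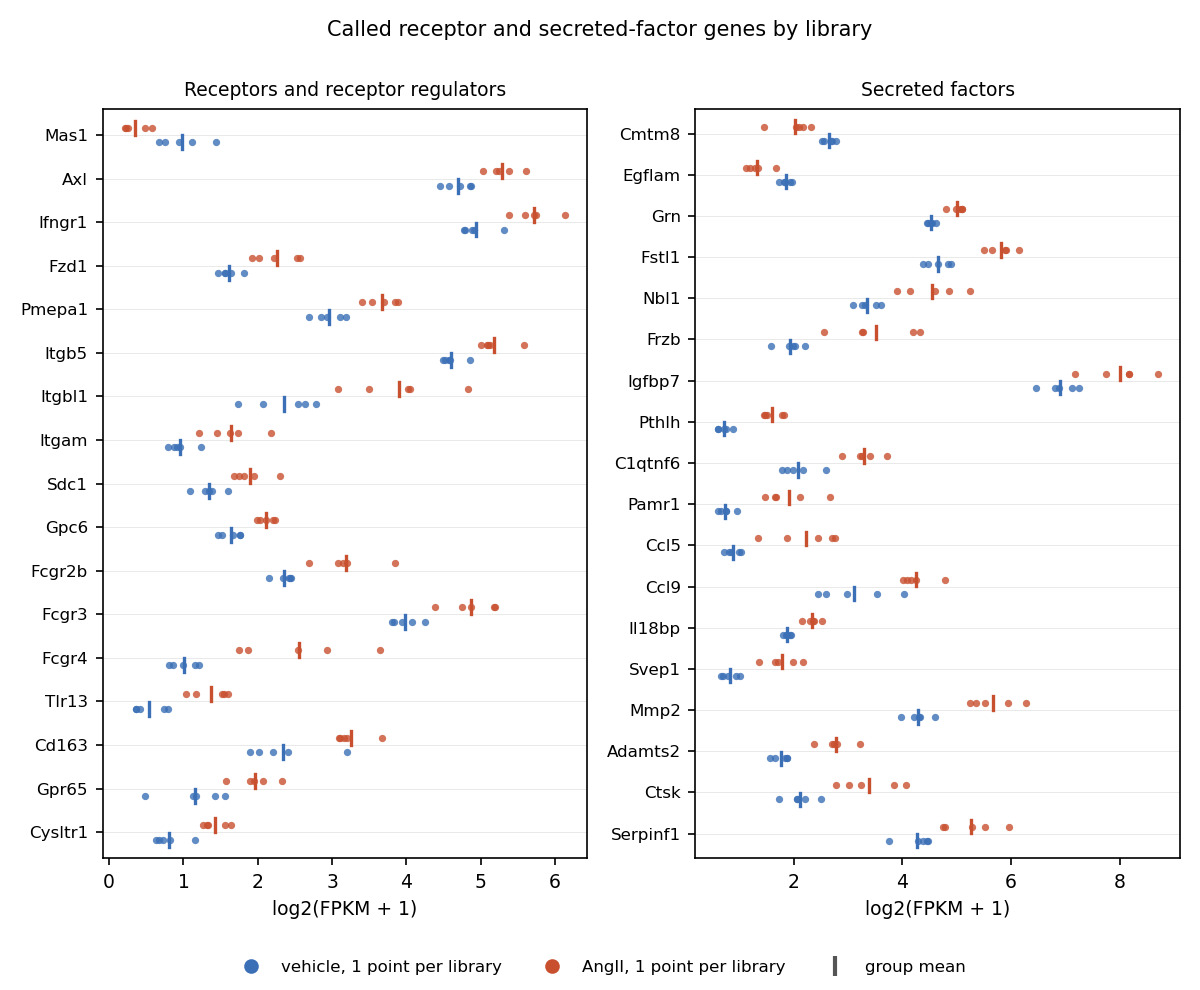
log2(FPKM + 1) per library of called receptor genes (left) and called secreted-factor genes (right), vehicle in blue and AngII in red, with bars at the group means. Mas1, Egflam and Cmtm8, a membrane protein on a secreted list, are lower in AngII, and the other genes are higher.

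The class of secreted factors had 27 of 297 members called higher and 2 lower, where 1.27% and 0.236% of all genes were. The 2 were Egflam and Cmtm8, a membrane protein listed with the growth factors, while Sned1 is not on these lists. The median of the class was 0.29, or 0.19 after quantile normalization. After rescaling 18 higher and 2 lower were called, and without AngII replicate 2 it was 31 and 2. Fstl1, a follistatin-related glycoprotein of the stressed heart, was at 21.3, 19.9, 28.9, 24.1 and 27.7 FPKM in vehicle and 58.7, 48.9, 44.5, 58.5 and 69.8 in AngII hearts. The lowest AngII heart lay well above the highest vehicle heart (log2 difference 1.17, SE 0.18, adjusted p = 0.0114). Nbl1, a secreted antagonist of bone morphogenetic proteins, rose by 1.19 and Ltbp2, a latent TGF-beta binding protein, by 1.86. They and Fstl1 were the 3 calls among 36 ligands and modulators of the TGF-beta family, 30 of which were higher. On the list of 53 growth factors Grn, the progranulin gene, rose by 0.48 (adjusted p = 0.0488) and Cmtm8 fell. Igfbp7 was the 1 call among 13 insulin-like growth factors and binding proteins (log2 difference 1.098, adjusted p = 0.0368). Grn and Igfbp7 were not called after rescaling or without AngII replicate 2.

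Pthlh and Ccl5 were low in vehicle and higher in each AngII heart. Pthlh, which encodes the vasodilating hormone parathyroid hormone-related protein and was named after its values were seen, was at 0.521, 0.528, 0.845, 0.646 and 0.679 FPKM in vehicle and 1.85, 2.53, 1.75, 2.45 and 1.78 in AngII hearts. Every AngII heart exceeded every vehicle heart (log2 difference 0.897, SE 0.16, adjusted p = 0.0146). Ccl5, a chemokine for T cells and monocytes, was at 0.998, 0.806, 0.651, 1.05 and 0.763 in vehicle and 5.56, 4.49, 1.55, 2.68 and 5.82 in AngII (log2 difference 1.35, SE 0.24, adjusted p = 0.0163). The chemokine Ccl9 rose by 1.15 and Il18bp, which binds interleukin 18, by 0.46, the other calls among 44 chemokines and cytokines. Over all genes 1.27% were called higher. C1qtnf6, a secreted protein with a C1q domain, was at 2.43, 5.07, 2.95, 2.69 and 3.49 in vehicle and 8.38, 9.61, 6.39, 8.51 and 12.2 in AngII (log2 difference 1.22, SE 0.18, adjusted p = 0.0114). Pamr1, a secreted protein with a protease-like domain, rose by 1.18. Ccl9 and Il18bp were not called after rescaling. Il18bp was not called without AngII replicate 2.

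Matricellular proteins had 11 of 48 members called higher and 1, Egflam, lower, where 1.27% and 0.236% of all genes were. Thbs4, a thrombospondin, rose by 3.13 on the log2 scale, and AngII replicate 5 held 163 FPKM, without which the difference was 2.54. Besides Postn and Cilp, the collagen-binding Sparc rose by 1.17, Svep1 by 0.96, Srpx by 1.03, Srpx2 by 0.86, Emilin1 by 0.89, Cthrc1 by 1.602 and Adamtsl2 by 1.48. Of 47 secreted proteases 4 rose, Mmp2, a gelatinase, by 1.38, the procollagen N-proteinase Adamts2 by 1.01, and the cathepsins Ctsk by 1.28 and Ctss by 1.299. Of 29 protease inhibitors 26 were higher and Timp1 and Serpinf1 (0.99) were called. Fibroblast markers were mostly higher too, and the collagens among them are counted again with the collagens below. Of 23 tested, 21 were higher and Pi16, Col1a1, Col1a2 and Col3a1 were called, and their sum was 1731 to 2400 FPKM in vehicle and 2350 to 4044 in AngII hearts. Srpx2, Cthrc1, Ctsk, Ctss and Serpinf1 were not called after rescaling. Cthrc1 was not called without AngII replicate 2.

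Structural matrix had large shares of calls, where 1.27% of all genes were called higher. Of 24 elastic fibre genes 10 rose, among them Mfap5 by 2.07, Fbln2 by 0.86 and Loxl1, a lysyl oxidase of elastin, by 1.21. Of 25 collagens 8 rose, led by p by Col1a2, Col5a2, Col3a1, Col1a1, Col8a1 and Col16a1, and without AngII replicate 2 it was 13. Of the largest rises, Lox reached 2.30, Fibin, a secreted protein, 1.79 and Mfap4 1.66. AngII replicate 2 held 70.03 FPKM of Lox, where the other AngII hearts held 5.45 to 32.1, and without it the difference of Lox was 1.78. Of 34 proteoglycan genes 3 rose, the collagen-binding Bgn by 1.31, the sulfatase Sulf1 by 0.804 and the chondroitin synthesis enzyme Chpf by 0.502. Of 35 genes for collagen synthesis and crosslinking 7 rose. P4hb, the protein disulfide isomerase and prolyl hydroxylase subunit, was at 74.9, 67.2, 82.8, 76.4 and 74.6 FPKM in vehicle and 102, 95.8, 92.9, 103 and 109 in AngII hearts (log2 difference 0.41, SE 0.09, adjusted p = 0.0305). The prolyl isomerases Fkbp11 and Fkbp14 rose by 0.88 and 0.62 and the cross-linking enzyme Tgm2 by 0.80. Of 55 genes of the secretory pathway 53 were higher with a median of 0.23, or 0.14 after rescaling and 0.09 after quantile normalization, yet none was called, and the smallest adjusted p were 0.0514 for the translocon protein Tram1 and 0.0606 for the cargo receptor Tmed3. Both were called higher without AngII replicate 2. Col16a1, Lox, Mfap4, Chpf, P4hb, Fkbp11 and Fkbp14 were not called after rescaling. Mfap4 and Fkbp11 were not called without AngII replicate 2.

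Of 405 metabolic genes 3 were called higher and 0 lower, where 1.27% and 0.236% of all genes were. Gpd1, cytosolic glycerol-3-phosphate dehydrogenase, which links glycolysis to lipid synthesis and the redox shuttle, was at 5.399, 4.79, 4.79, 6.22 and 4.42 FPKM in vehicle and 11.1, 9.23, 10.3, 13.3 and 8.23 in AngII hearts. Each AngII heart exceeded each vehicle heart (log2 difference 0.89, SE 0.13, adjusted p = 0.0114), and 12.97% of its exon bases are shared with the opposite-strand model Gm16537. Pfkp, the platelet-type phosphofructokinase, was at 6.13, 4.399, 5.93, 4.35 and 5.03 in vehicle and 10.4, 8.24, 8.71, 9.91 and 11.02 in AngII (log2 difference 0.79, SE 0.14, adjusted p = 0.0163). Ucp2, an inner-membrane carrier, rose by 0.85. Among 59 genes of glycolysis and glucose use 30 were higher and 29 lower. Ucp2 was not called after rescaling or without AngII replicate 2.

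Genes of oxidation were mostly lower without passing. Of 38 fatty acid oxidation genes 30 were lower, with a median of -0.11 that was -0.19 after rescaling. It was -0.04 without AngII replicate 2 and -0.14 when rescaled as well. Ech1, an auxiliary enzyme of that pathway, had means of 584 and 423 FPKM (adjusted p = 0.0982, and 0.0455 after rescaling, which makes it a call), and Acaa2 had an adjusted p of 0.254. Of 43 genes of the citric acid cycle and pyruvate oxidation 31 were lower, and the smallest p belonged to Idh3g (-0.25, adjusted p = 0.254) and to the kinase Pdk4, which was higher (1.29, adjusted p = 0.271). Of 81 nuclear respiratory chain genes 60 were lower, with a median of -0.05. Without AngII replicate 2 it was 0.03, where the median of all genes was 0.095. When rescaled as well it was -0.08, against 0.01 for all genes. Cox8a and Cox6a1 had the smallest p there, and both were higher (0.33 and 0.51, adjusted p = 0.234 and 0.312). Cardiomyocyte markers as a list had 16 of 23 lower, none called, with a median of -0.10. It was 0.04 without AngII replicate 2 and -0.07 when rescaled as well. Hspb7 (0.71, adjusted p = 0.0812) and Tnni3 (-0.38, adjusted p = 0.193) had the smallest p among them, and Hspb7 was called higher without AngII replicate 2. At an unadjusted p under 0.05, limma gave 3 fatty acid oxidation genes, 4 of the citric acid cycle list, 1 respiratory chain gene and 3 cardiomyocyte markers, and voom called 0 on each of these lists.

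Several enzymes outside the lists rose and were named after their values were seen. Dio2, the deiodinase that makes active thyroid hormone in the cell, was at 0.303, 0.651, 0.867, 0.662 and 0.847 FPKM in vehicle and 2.102, 2.63, 1.65, 3.79 and 4.62 in AngII hearts, with no overlap (log2 difference 1.21, SE 0.203, adjusted p = 0.01297). Uck2, the uridine-cytidine kinase of pyrimidine salvage, was at 5.64, 3.65, 4.39, 4.39 and 3.21 in vehicle and 17.1, 11.4, 10.6, 13.3 and 8.56 in AngII, again with no overlap (log2 difference 1.31, SE 0.28, adjusted p = 0.0335). Upp1, the uridine phosphorylase of the same pathway, rose by 0.97 (adjusted p = 0.0346). Msrb1, a selenoprotein that repairs oxidised methionine, was at 43.4, 39.3, 39.1, 34.04 and 45.99 in vehicle and 84.6, 80.5, 70.2, 54.3 and 60.4 in AngII (log2 difference 0.77, SE 0.13, adjusted p = 0.0127). On the antioxidant list 4 of 54 rose, the extracellular superoxide dismutase Sod3 by 0.75, the oxidase subunit Ncf4 by 0.67, Ucp2, and the peroxidase Gpx7 by 0.78. On the lipid mediator list 2 of 42 rose, Pla2g7, which degrades platelet-activating factor, by 1.195 and Ptgis, the prostacyclin synthase, by 0.95. Over all genes 1.27% were called higher. Uck2, Ucp2, Gpx7 and Ptgis were not called after rescaling. Ucp2, Gpx7 and Ptgis were not called without AngII replicate 2.

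In the muscle class 4 of 110 rose and 1 fell, where 1.27% and 0.236% of all genes were called higher and lower. Besides Acta1 and Ankrd1, the intermediate filament gene Des rose from 411 ± 56.96 to 657 ± 71.5 FPKM (SD, n = 5; log2 difference 0.68, adjusted p = 0.0335), and Fstl1 is also on that class's fetal list. The sarcomere list had 21 of 38 members lower, with a median of -0.05. It was 0.11 without AngII replicate 2, so its sign rested on that library, and 0.01 when rescaled as well. Myl1, a skeletal myosin light chain named after its values were seen, was at 12.2, 15.7, 19.3, 24.5 and 32.3 in vehicle and 37.8, 80.4, 37.1, 51.3 and 44.8 in AngII hearts (log2 difference 1.25, SE 0.26, adjusted p = 0.0304). Of 75 actin regulators 63 were higher and none was called, and the Arp2/3 subunits Arpc1b and Arpc5 had adjusted p of 0.0503 and 0.061. Without AngII replicate 2 the capping protein Capg and the filament-elongation protein Enah, named after their values were seen, were called higher (log2 differences 0.91 and 0.90, adjusted p = 0.0314 and 0.0207). Signalling genes inside the cell had 6 of 227 called, among them the G protein subunit Gnao1 (0.49). In the cell cycle list 42 of 48 were higher and 2 were called, Nusap1 by 0.49 and Cdc20, an activator of the anaphase-promoting complex, by 0.66. Des, Myl1, Gnao1, Nusap1 and Cdc20 were not called after rescaling. Nusap1 and Cdc20 were not called without AngII replicate 2.

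Some lists were higher in nearly all members without a call. Of 78 cytosolic ribosomal protein genes 76 were higher (median 0.25, 0.16 both after rescaling and without AngII replicate 2, and 0.05 with both changes, against 0.01 for all genes). Of 53 interferon-stimulated genes 51 were higher (median 0.32). The smallest p there belonged to Zbp1, a sensor of left-handed nucleic acid, at 0.579 ± 0.2604 FPKM in vehicle and 1.403 ± 0.484 in AngII (SD, n = 5; adjusted p = 0.108), and to H2-D1, a class I histocompatibility chain (adjusted p = 0.114). Of 26 glucocorticoid-responsive genes 24 were higher, with a median of 0.84 that was 0.59 without AngII replicate 2 and 0.49 when rescaled as well. Fkbp5 was at 7.06, 1.13, 7.93, 2.32 and 1.84 in vehicle and 7.09, 24.6, 7.39, 8.28 and 14 in AngII hearts (adjusted p = 0.0776). Mt1, a metallothionein, was at 424, 165, 317, 108 and 162 in vehicle and 488, 2029, 345, 455 and 728 in AngII (adjusted p = 0.0908), and for both genes AngII replicate 2 was the highest and the groups overlapped. Of 19 clock genes 17 were higher (median 0.27, 0.19 without AngII replicate 2 and 0.08 when rescaled as well), and the smallest adjusted p was that of Nr1d1, 0.319, followed by Rora, 0.345. Members of such lists may vary together between libraries, so the counts are not independent observations. At an unadjusted p under 0.05, limma gave 6 ribosomal, 17 interferon-stimulated, 17 glucocorticoid-responsive and 0 clock genes, 12 endothelial markers, 26 secretory pathway and 14 actin regulator genes. Voom called 1 actin regulator and 0 on the others of these lists. Endothelial markers had 34 of 39 higher with none called, Ly6c1 (0.76, adjusted p = 0.08499) and Pdpn (0.89, adjusted p = 0.0908) having the smallest p, and a summed FPKM of 1697 to 2350 in vehicle and 2269 to 2930 in AngII hearts.

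**Figure D4:**
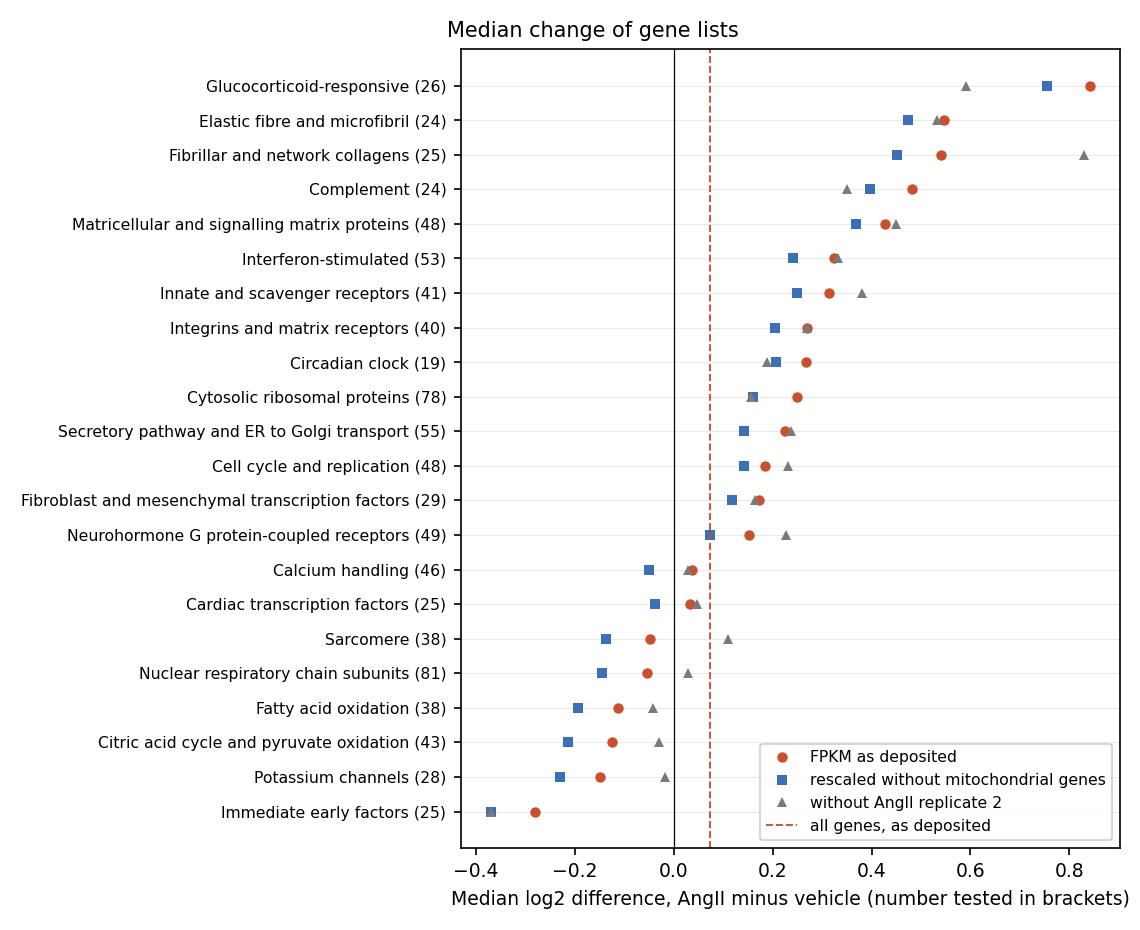
Median log2 difference, AngII minus vehicle, of 22 gene lists with FPKM as deposited (circles), after rescaling without mitochondrial genes (squares) and without AngII replicate 2 (triangles), with the median of all genes as a dashed line at 0.07. The sarcomere, respiratory chain, calcium and cardiac factor lists have medians on both sides of 0, while the collagen, complement and glucocorticoid lists stay above it.

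The third group gives the level of these genes in hearts that received AngII together with OA, against the same vehicle libraries. Clcn1 was at 1.15, 0.919, 0.888, 1.61 and 1.73 FPKM there and Ano10 at 9.53, 4.79, 6.13, 6.02 and 11.1. Mas1 was at 0.571, 0.6196, 0.628, 0.935 and 1.08, and C1qtnf6 at 4.82, 4.795, 3.797, 5.63 and 3.19. Gpd1 stood at 7.01 ± 1.02 (SD, n = 5), between 5.12 ± 0.704 in vehicle and 10.4 ± 1.95 in AngII, and Dio2 at 1.42 ± 0.5499. Against vehicle, 0 of the 166 rises and 0 of the 31 falls were called in that group. These genes had been selected by their difference between AngII and vehicle hearts, and the values are given as a description.

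**Figure D5:**
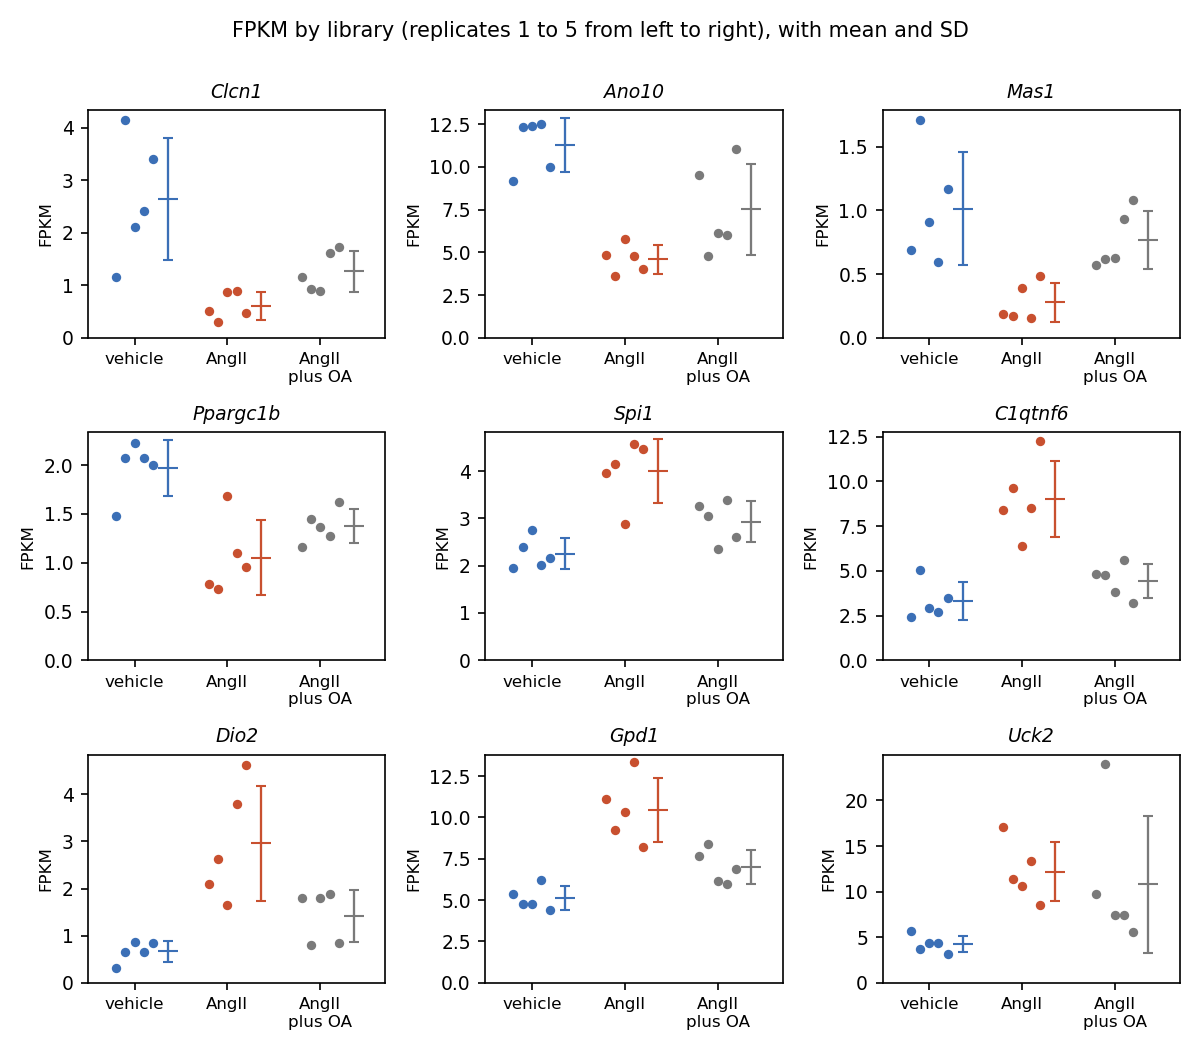
FPKM per library of 9 genes in vehicle (blue), AngII (red) and AngII plus OA (grey) hearts, replicates 1 to 5 from left to right in each group, with the mean and SD beside the points. In Clcn1, Ano10 and Mas1 the AngII points lie below all vehicle points, and in Spi1, C1qtnf6, Dio2, Gpd1 and Uck2 above them.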

How the data were processed

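Poly(A) RNA of mouse ventricles was sequenced in 15 libraries, 5 per group. The authors deposited 1 table of FPKM for 36653 genes, 36464 of them with a symbol. HISAT2 2.0.4 and the build mm8 are named in the submitters' processing notes. For the read counter, its annotation and strand setting, and the FPKM program, the sources used here give nothing.

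On log2(FPKM + 1), genes with a mean of at least 0.5 FPKM went into limma 3.58.1 (R 4.3.3; intensity trend, group as the only term, 2-sided), with Benjamini-Hochberg adjustment over 13121 genes and a threshold of 0.05. All 15 libraries shared the estimate of the spread. FPKM steps gave whole reads for 99.3% of genes above 0 (within 0.02 of a whole read), and these reads served for depth and for 1 alternative with limma's voom. They amounted to 57.1 reads per library (median) for genes at 0.5 to 1 FPKM. The fit was tested on simulated data.

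The members and the 73 gene lists were chosen with earlier results of these data known. Named were the 5 markers, every called fall with a symbol, the 20 largest called rises with at least 1 FPKM in AngII, every called gene on a transcription factor, receptor or secreted list, and, for other lists, up to 6 called members, or the 2 with the smallest p where none was called, of which 3 genes are left out here. Shared exon bases and promoters came from the GRCm38.p6 reference and RefSeq.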

Additional observations from a re-analysis of the deposited data

Results flagged for a closer look

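In each group of 5 libraries, the highest or lowest value of every named gene was set against the others (Dixon's test, critical value 0.71). Of 322 groups 17 held such a value, and chance flags about 1 in 20 groups. AngII replicate 2 held 6 of them and vehicle replicate 1 held 4.

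In AngII replicate 2, Kcnv2 was at 0.437 FPKM (1.55 to 2.06 in the other AngII hearts) and Idh3g at 98.6 (126 to 138), both low. The same heart was high for the macrophage scavenger receptor Cd163 at 11.7 (7.54 to 8.22), for Tgm2 at 72.7 (40.6 to 46.7), for the mesothelial and lymphatic gene Pdpn at 18.7 (5.51 to 7.47) and for Rora at 4.65 (2.08 to 2.601). AngII replicate 5 held 162.8 FPKM of Thbs4, where the other 4 hearts had 13.9 to 27.7, and 46.8 of Itgb5 (31.1 to 34.0).

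Vehicle replicate 1 was high for Ifngr1 at 39.0 FPKM (26.4 to 29.1 in the other vehicle hearts). It was low for Ppargc1b at 1.48 (1.999 to 2.22), Serpinf1 at 12.6 (18.6 to 21.3) and Tbc1d10c at 2.77 (3.57 to 3.89). Vehicle replicate 2 was high for Itgb5 at 27.8 (21.5 to 23.1) and Nusap1 at 1.06 (0.506 to 0.549). Fxyd5 and Capg were low in vehicle replicate 4, Fxyd5 at 6.65 (8.65 to 9.46) and Capg at 6.56 (9.23 to 10.4), and Ech1 was low in vehicle replicate 5 at 505.2 (590.1 to 618).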

How the results depend on the processing

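Of 197 calls (166 higher, 31 lower), the count was 114 (77 higher) after rescaling without mitochondrial genes, 109 (69 higher) after quantile normalization, 72 (63 higher, 9 lower) with no filter, and 70 (63 higher, 7 lower) with only the 10 AngII and vehicle libraries. With each library shifted to 1 median 103 were higher and 57 lower, with array weights 251 were higher, and with a filter at a mean FPKM of 5, where 5833 genes were tested, 7 were lower. An alternative chosen after the data were seen, rescaling without AngII replicate 2, gave 111 calls (88 higher), and another, voom, gave 179. Leaving out 1 library gave 49 to 425 calls, 43 to 366 higher and 6 to 59 lower. A replicate block gave 38 calls, 32 higher and 6 lower. The correlation of same-numbered deviations ran from -0.23 to 0.21, and that of differently numbered ones from -0.39 to 0.46. So few libraries cannot decide whether replicate numbers mark pairs or batches. The mitochondrial share differed by -5.94 percentage points, by -7.74 to -4.29 with 1 library left out, and its sign-flip p under the block was 0.1875, where 0.0625 is the smallest possible. The cause was not tested for any of these changes in count. Of the 123 called genes named in the text, none changed direction under any of these settings. Depth limits what is detectable at 0.5 to 1 FPKM, where the median gene had 57.1 reads in a library.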
